A study of Homo sapiens with 6 samples.

Results

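The genes of the mitochondrial genome are the 37 rows of the count table whose symbols begin with MT-, out of 52088 genes in all. They comprise 13 genes for proteins, 2 for ribosomal RNAs (rRNAs) and 22 for transfer RNAs (tRNAs). The rows were picked by name, but this set of genes was chosen for study with earlier results of these data known. Gene expression was measured by bulk RNA sequencing of K562, an established human erythroleukemia cell line. Control cells, labelled WT, were compared with 2 knockout (KO) lines, each a single-cell clone in which an ultra-conserved element (UCE), a stretch of non-coding DNA that is identical between distant species, had been removed with a pair of Cas9 guides and puromycin selection. In PAX6_Ta KO the deleted element was PAX6_Tarzan, and in PBX3_Cl KO it was PBX3_Claudia. The labels do not say whether Control cells were transfected. Each of these 3 groups had 2 libraries, with between 45912044 and 60908470 counts each. The labels do not say that the libraries came from separate cultures, so the p-values below measure the spread between libraries, which may be technical. With 1 clone per element, the deletion and anything else particular to the clone cannot be told apart, and in bulk RNA fewer mitochondrial transcripts per cell cannot be told apart from fewer cells that carry many.

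Human mitochondria carry a small circular genome of their own. Its 2 strands, called heavy and light, are each transcribed as a long precursor, from which the tRNAs are cut out and the messenger RNAs (mRNAs) and rRNAs between them are released. The proteins it encodes are core subunits of the respiratory chain and of ATP synthase: NADH dehydrogenase (complex I), cytochrome b of complex III, cytochrome c oxidase (complex IV) and ATP synthase (complex V). All other mitochondrial proteins, including the RNA polymerase that reads this genome, are encoded in the nucleus.

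The circle is 16569 bp long in the GRCh37 build, and 28 genes lie on its plus strand and 9 on its minus strand in the annotation. Most genes abut their neighbours, and some share bases. MT-ATP8 (MT:8366-8572) and MT-ATP6 (MT:8527-9207), both of complex V, share 46 bases, and MT-ND4L (MT:10470-10766) and MT-ND4 (MT:10760-12137), both of complex I, share 7. These stretches are shown because both pairs lie on 1 mRNA each, so reads over the shared bases belong to both genes of a pair. The start codon of the downstream gene opens each stretch and the stop codon of the upstream gene ends it, both in capitals:
MT-ATP8 and MT-ATP6, MT:8527-8572, plus strand: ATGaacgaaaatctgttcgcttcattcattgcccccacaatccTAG
MT-ND4L and MT-ND4, MT:10760-10766, plus strand: ATGcTAA
MT-TP, the proline tRNA, is the only tRNA gene whose counts could be compared, and lies on the minus strand between MT-TT and the non-coding control region. It is printed from the GRCh37 reference, 68 bases 5′ to 3′ of the tRNA strand, with its anticodon in capitals:
MT-TP, MT:15956-16023, minus strand: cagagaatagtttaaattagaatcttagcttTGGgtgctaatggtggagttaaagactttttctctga

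Of the 37 genes, 16 had enough counts to be tested, namely the 13 protein genes, MT-RNR1, MT-RNR2 and MT-TP. In 19 of the 22 tRNA genes no read was counted in any library, which over 301038980 counts allows up to 3 counts, or 0.00997 CPM (counts scaled to the library total), per gene (counting error only). MT-TF, the phenylalanine tRNA, held between 0 and 5 counts per library, and MT-TL2, a leucine tRNA, held 1 count in 1 Control library. tRNA genes span 59 to 75 bases, and every one of the 19 had another gene within 31 bp on both sides. MT-TP and MT-TF lie at either end of the gene-free control region, within which the reference sequence of the circle is cut. Of this region, 546 bp lie between MT-TP and the cut, and 576 bp between the cut and MT-TF. MT-TF thus had an open side as MT-TP did, but at most 5 counts per library. Any part of neighbouring genes in the counts was not tested. These zeros describe the libraries and their counting, and give no measure of the tRNAs in the cells.

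Mitochondrial genes took a larger share of the counts in PBX3_Cl KO than in Control. The share of all gene counts was 1.52% and 1.57% in the Control libraries, 1.92% and 1.56% in PAX6_Ta KO, and 2.37% and 2.42% in PBX3_Cl KO. The means were 1.54% ± 0.0322, 1.74% ± 0.257 and 2.39% ± 0.0378 (SD, n = 2 each), so that PBX3_Cl KO stood 1.55-fold above Control, outside the range of the other 4 libraries. PAX6_Ta KO stood 1.13-fold above Control, but its 2 libraries lay on either side of the higher Control value, and its fold was within the spread between libraries. No p-value is given for this summed share, since the genes were chosen with earlier results of these data known.

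**Figure D1:**
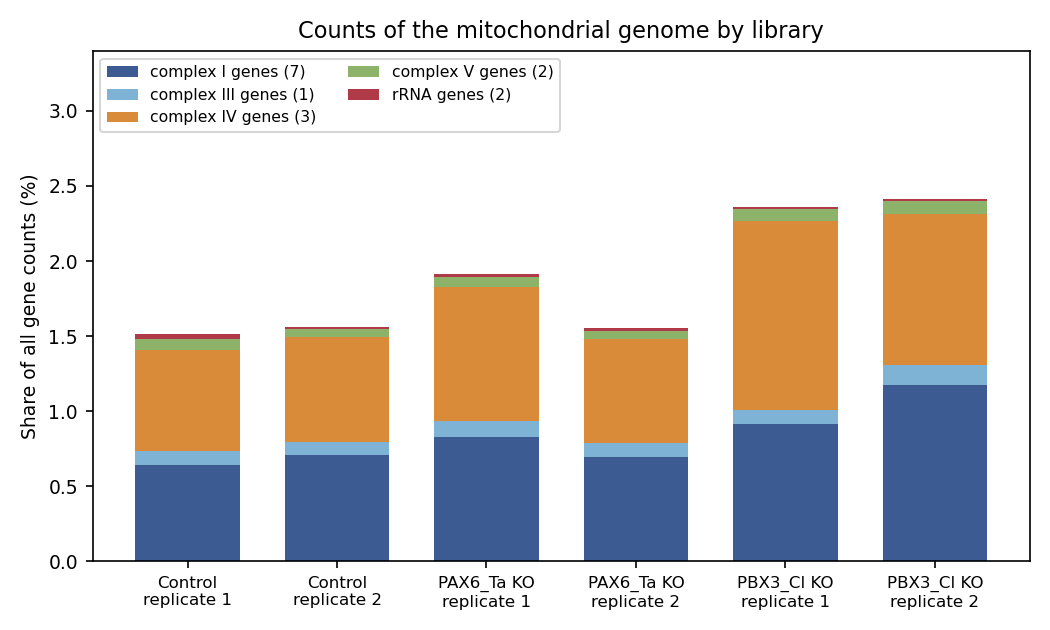
Stacked bars give the share of all gene counts (%) held by the mitochondrial protein genes of each respiratory complex and by the rRNA genes, in each of the 6 libraries; numbers in brackets are genes. Both PBX3_Cl KO bars end above 2.3%, while the other 4 libraries reach at most 1.92%.

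Most of the larger share in PBX3_Cl KO lay in genes that were already among the most counted. MT-CO1 and MT-ND4 together made up 73.3% of the added 0.852 percentage points, and with MT-CO3 84.3%. Singly, MT-CO1, MT-ND4 and MT-CO3 made up 37.1%, 36.1% and 11.0% of it. In Control they held on average 32.3%, 19.8% and 8.11% of all mitochondrial counts. By complex, the ratio of the mean share in PBX3_Cl KO to that in Control was 1.65 for the 3 complex IV genes, 1.55 for the 7 complex I genes, 1.27 for MT-CYB of complex III and 1.27 for the 2 complex V genes. The 2 rRNA genes went the other way, with a ratio of 0.641, but their share in Control was 0.0305% in 1 library and 0.0114% in the other. The rRNA counts were low beside the mRNAs in every library, and no source used here states whether rRNA was removed before sequencing.

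Levels between genes were compared as CPM per kb of gene (counts scaled with TMM factors, then divided by gene length). In Control, the highest level was that of MT-CO1, the catalytic subunit of complex IV, at 3178 ± 249 CPM per kb (SD, n = 2). MT-ND4 followed with 2177 ± 306 and MT-CO3, another core subunit of complex IV, with 1561 ± 366. MT-ND4L (1258 ± 228), MT-ND2 (1013 ± 158), MT-TP (982 ± 121), MT-ATP6 (913 ± 259.5) and MT-CO2 (886 ± 95.3) formed a middle range in which neighbouring genes did not differ beyond their spread. Below them came MT-CYB at 776 ± 90.6, MT-ND5 at 708 ± 32.6, MT-ND1 at 592 ± 78.1 and MT-ND3 at 441 ± 4.68 CPM per kb. MT-ND6, the only protein gene of the minus strand, was the next to lowest protein gene at 353 ± 21.7, and MT-ATP8 the lowest at 102 ± 8.39. No source used here states whether the counting used strand, so counts at MT-ND6 cannot be assigned to its own mRNA or to RNA of the opposite strand. MT-CO1, MT-ND4 and MT-CO3 led in the same order in the means of both KO lines, although in PBX3_Cl KO replicate 2 MT-ND4, at 5112 CPM per kb, lay above MT-CO1, at 4468. Shared bases affect these levels little except for MT-ATP8, which reached 130.7 CPM per kb in Control when only its bases outside MT-ATP6 were used as its length.

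**Figure D2:**
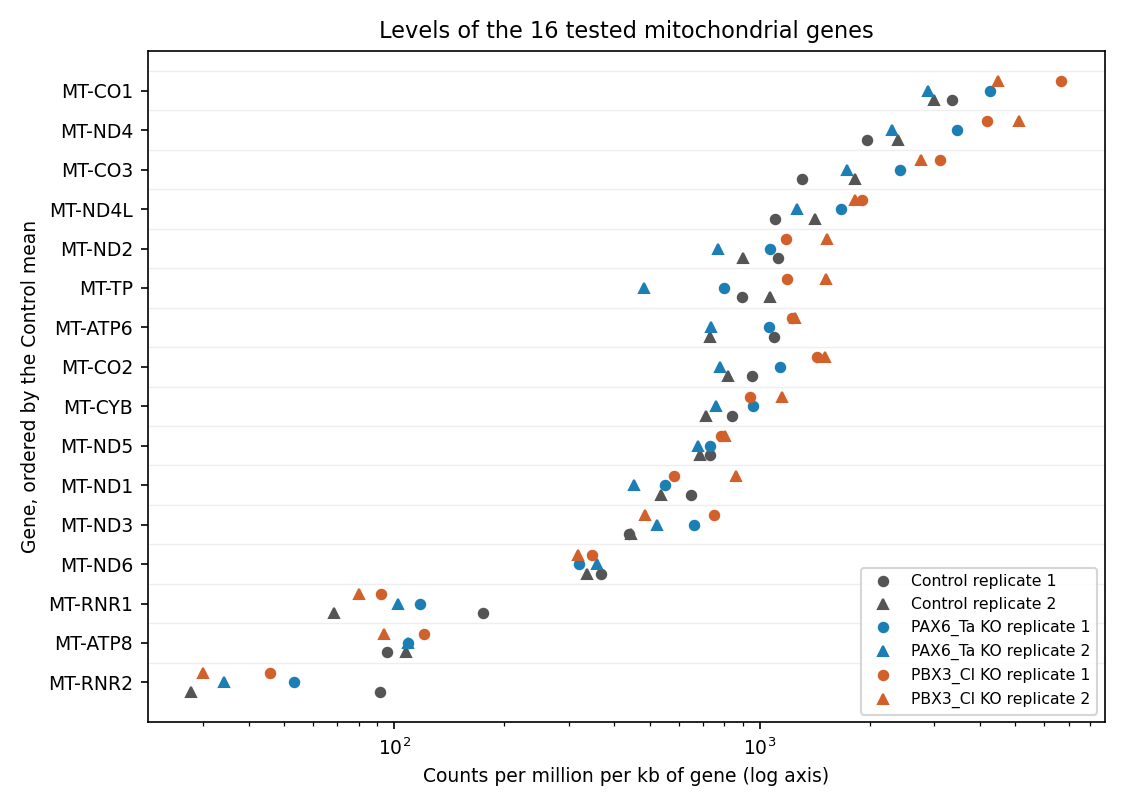
Each row is 1 of the 16 tested mitochondrial genes and each point 1 library, placed by CPM per kb of gene on a log axis; colour gives the group and marker shape the replicate number, and rows are ordered by the Control mean. PBX3_Cl KO points lie right of both Control points for 11 of the 16 genes, and the 2 Control points of MT-RNR1 and MT-RNR2 lie far apart.

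PBX3_Cl KO was compared with Control to ask which genes lay behind its larger share. Of the 16 tested genes, 13 had a fold change above 0, and in 11 both PBX3_Cl KO libraries lay above both Control libraries, against 23.5% of all 20746 tested genes. The median log2 fold change of the 16 genes was 0.43, and that of all tested genes -0.01. These genes share 2 precursor RNAs and are not independent of each other. By edgeR's quasi-likelihood test with Benjamini-Hochberg adjustment over all tested genes, 1 of the 16 was higher at an adjusted p below 0.05 and 0 were lower. Over all tested genes 6.28% were called higher and 2.69% lower, so 1 of 16 is near the background and the count of calls says nothing particular about the mitochondrial genes. At an unadjusted p below 0.05, 5 were higher and 0 lower, and DESeq2, fitted without the filter to the 18 genes with any count, called 2 higher and 0 lower. The labels name no pairing or batch. Replicate numbers were taken to pair the libraries from correlations of 0.21 to 0.389 between groups in these same data. A fit with a term for that number, the replicate block, called 4 higher, MT-ND4, MT-CO1, MT-CO2 and MT-CO3, where 9.26% of all genes were.

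The complex I genes ranged from the only call to estimates near 0. MT-ND4, a core subunit of its proton-pumping arm, measured 2701 and 3297 in Control, 4763 and 3162 in PAX6_Ta KO, and 5746 and 7044 in PBX3_Cl KO CPM. Both PBX3_Cl KO libraries were above the other 4, and PAX6_Ta KO replicate 1 lay between them and Control. Its log2 fold change in PBX3_Cl KO was 1.09 (95% interval 0.46 to 1.73, adjusted p = 0.0354). The call was lost when any one Control or PBX3_Cl KO library was left out, with log2 fold changes from 0.94 to 1.24 and adjusted p up to 0.274. MT-ND4L, which shares its mRNA with MT-ND4, measured 326 and 422 in Control, 494 and 376 in PAX6_Ta KO, and 567 and 541 in PBX3_Cl KO CPM. It too did not overlap between PBX3_Cl KO and Control, and its log2 fold change was 0.57 ± 0.23 (SE, adjusted p = 0.175). The ratio of MT-ND4 to MT-ND4L per kb was 1.79 and 1.69 in Control, 2.08 and 1.81 in PAX6_Ta KO, and 2.19 and 2.80 in PBX3_Cl KO, so the ratio in both PBX3_Cl KO libraries was above those of the other 4.

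The other complex I genes differed less. MT-ND2 measured 1172 and 938 in Control, 1108 and 802 in PAX6_Ta KO, and 1228 and 1594 in PBX3_Cl KO CPM, with a log2 fold change in PBX3_Cl KO of 0.42 ± 0.26 (SE, adjusted p = 0.439). MT-ND1 measured 618 and 513 in Control, 525 and 433 in PAX6_Ta KO, and 558 and 823 in PBX3_Cl KO CPM, overlapping between PBX3_Cl KO and Control, at 0.29 ± 0.25 (SE, adjusted p = 0.625). Neither passed the test. MT-ND3 measured 151 and 154 in Control, 228 and 181 in PAX6_Ta KO, and 259 and 168 in PBX3_Cl KO CPM, and here Control lay below both KO lines, at 0.49 ± 0.23 (SE, adjusted p = 0.282) in PBX3_Cl KO. MT-ND5, a large subunit of the same proton-pumping arm, measured 1324 and 1240.3 in Control, 1322 and 1231 in PAX6_Ta KO, and 1420.0 and 1453 in PBX3_Cl KO CPM, at 0.16 ± 0.22 (SE, adjusted p = 0.792). MT-ND6, transcribed from the opposite strand and adjacent to MT-ND5, measured 193 and 177 in Control, 168 and 189 in PAX6_Ta KO, and 183 and 167 in PBX3_Cl KO CPM, at -0.08 ± 0.19 (SE, adjusted p = 0.897). Its interval, -0.50 to 0.33 on the log2 scale, holds no rise as large as the estimate for MT-ND4. These values are of all counts at MT-ND6, whose strand is not known.

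The 3 complex IV genes were the next largest. MT-CO3 measured 1021 and 1427 in Control, 1891 and 1355 in PAX6_Ta KO, and 2443 and 2158 in PBX3_Cl KO CPM, and its log2 fold change in PBX3_Cl KO was 0.91 (95% interval 0.33 to 1.496, adjusted p = 0.0565). MT-CO1 measured 5172 and 4629 in Control, 6564 and 4441 in PAX6_Ta KO, and 10291 and 6890.2 in PBX3_Cl KO CPM. Both PBX3_Cl KO libraries exceeded both Control libraries, but they differed from each other 1.49-fold, and the log2 fold change was 0.81 (95% interval 0.13 to 1.49, adjusted p = 0.152). MT-CO2, which carries the copper site that receives electrons from cytochrome c, measured 652 and 559.8 in Control, 776 and 533 in PAX6_Ta KO, and 981 and 1028 in PBX3_Cl KO CPM, with a log2 fold change of 0.73 (95% interval 0.21 to 1.25, adjusted p = 0.0899). None of the 3 passed the test, and all 3 did with the replicate block, at adjusted p = 0.0265 for MT-CO3, 0.0137 for MT-CO1 and 0.0207 for MT-CO2 (log2 fold changes 0.90, 0.78 and 0.74). All 3 also passed it without a filter on low counts (adjusted p = 0.00399, 0.0182 and 0.0389), and MT-CO3 passed by DESeq2 (adjusted p = 0.0104) and without PAX6_Ta KO replicate 1 (adjusted p = 0.0489).

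MT-CYB, cytochrome b of complex III, measured 958 and 812 in Control, 1096 and 868 in PAX6_Ta KO, and 1075 and 1311 in PBX3_Cl KO CPM. PBX3_Cl KO was above Control in both libraries, by a log2 fold change of 0.43 ± 0.24 (SE, adjusted p = 0.369). For complex V, MT-ATP6, a subunit of the proton channel of ATP synthase, measured 747 and 497 in Control, 722 and 502 in PAX6_Ta KO, and 836 and 849 in PBX3_Cl KO CPM, at 0.44 ± 0.26 (SE, adjusted p = 0.419). MT-ATP8, the small companion subunit, measured 19.8 and 22.3 in Control, 22.6 and 22.5 in PAX6_Ta KO, and 24.9 and 19.5 in PBX3_Cl KO CPM. PBX3_Cl KO overlapped with both other groups, whereas both PAX6_Ta KO libraries lay just above Control, and the log2 fold change in PBX3_Cl KO was 0.08 ± 0.21 (SE, adjusted p = 0.917). The ratio of MT-ATP6 to MT-ATP8 per kb ranged from 6.78 to 11.4 in Control and was 10.2 and 13.3 in PBX3_Cl KO.

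The rRNAs of the mitochondrial ribosome could not be ranked between groups. MT-RNR1, the small-subunit rRNA, measured 167 and 65.2 in Control, 113 and 97.8 in PAX6_Ta KO, and 87.7 and 76.4 in PBX3_Cl KO CPM. MT-RNR2, the large-subunit rRNA, measured 143 and 43.5 in Control, 82.9 and 53.4 in PAX6_Ta KO, and 71.4 and 46.8 in PBX3_Cl KO CPM. The Control libraries alone differed 2.55-fold in MT-RNR1 and 3.28-fold in MT-RNR2, more than any KO line differed from the Control mean. The log2 fold changes in PBX3_Cl KO were -0.50 ± 0.33 (SE, adjusted p = 0.484) and -0.66 ± 0.42 (SE, adjusted p = 0.469). Without Control replicate 2 both were called lower in PBX3_Cl KO (-1.02 and -1.27, adjusted p = 0.0222 and 0.00616), and without Control replicate 1 both turned to 0.33 and 0.44, so 1 Control library set the direction.

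Within the mitochondrial counts, the parts of some transcripts did not overlap between PBX3_Cl KO and Control. No test was run on these parts, and no background of other genes was computed for them. MT-ND4 made up 17.5% and 22.2% of all mitochondrial counts in Control and 22.2% and 29% in PBX3_Cl KO, the lower of which was hardly above the higher Control value. MT-ND5 made up 8.58% and 8.34% in Control and 5.49% and 5.99% in PBX3_Cl KO. MT-ND6 made up 1.25% and 1.19% against 0.707% and 0.689%. MT-ND1, MT-CYB, MT-ATP8 and both rRNAs also took a smaller part in both PBX3_Cl KO libraries than in either Control library. The parts of MT-CO1, MT-CO2, MT-CO3, MT-ND2, MT-ND3, MT-ND4L, MT-ATP6 and MT-TP overlapped between these groups. MT-CO1 held the largest part in 5 of the 6 libraries and in all groups on average, from 28.4% to 39.8%, both in PBX3_Cl KO. These parts sum to a whole, so a gene that rises lowers the part of the others.

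PAX6_Ta KO, compared with the same Control libraries, showed no mitochondrial gene past the threshold. By edgeR, 0 of the 16 were called higher and 0 lower, where 7.21% and 4.21% of all tested genes were. At an unadjusted p below 0.05, 0 were higher and 1 was lower, and DESeq2 called 0 in either direction. The median log2 fold change of the 16 was 0.05, beside -0.02 over all tested genes, and 8 of the 16 were above 0. Both PAX6_Ta KO libraries lay above both Control libraries for 2 genes, MT-ND3 and MT-ATP8, where 27.0% of all genes did, and below them for 1, MT-TP, where 28.0% did. The largest estimates among the mRNAs were MT-ND3 at 0.42 (95% interval -0.09 to 0.93, adjusted p = 0.327), MT-CO3 at 0.41 (95% interval -0.17 to 0.99, adjusted p = 0.437) and MT-ND4 at 0.40 (95% interval -0.23 to 1.03, adjusted p = 0.495). MT-CO1 was at 0.17 (95% interval -0.50 to 0.84, adjusted p = 0.844).

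The 2 KO lines were also compared directly. Of the 16 genes, 1 was called lower in PAX6_Ta KO than in PBX3_Cl KO, where 6.71% of all tested genes were, and 0 were called higher, where 5.26% were. At an unadjusted p below 0.05, 4 were lower and 0 higher, and DESeq2 called 1 lower and 0 higher. The median log2 difference of the 16 was -0.41, beside -0.01 over all tested genes. In 10 of the 16, both PAX6_Ta KO libraries lay below both PBX3_Cl KO libraries, against 25.6% of all genes. With the replicate block 3 were called lower, MT-TP, MT-CO1 at -0.64 (adjusted p = 0.0244) and MT-CO2 at -0.64 (adjusted p = 0.0299), where 10.6% of all genes were. MT-ND4, the only gene called against Control, was not called between the lines, at -0.69 (95% interval -1.32 to -0.06, adjusted p = 0.163).

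MT-TP, whose sequence is given above, was the gene called between the KO lines. It measured 60.9 and 72.6 in Control, 54.3 and 32.9 in PAX6_Ta KO, and 80.9 and 103 in PBX3_Cl KO CPM. Both PAX6_Ta KO libraries were lowest and both PBX3_Cl KO libraries highest, with Control between them and no overlap. The log2 difference of PAX6_Ta KO from PBX3_Cl KO was -1.08 (95% interval -1.62 to -0.54, adjusted p = 0.0134). Against Control, the fold changes pointed in opposite directions and neither passed the test, at -0.62 ± 0.25 (SE, adjusted p = 0.152) in PAX6_Ta KO and 0.46 ± 0.25 (SE, adjusted p = 0.345) in PBX3_Cl KO. The call between the lines was lost without PAX6_Ta KO replicate 2 (adjusted p = 0.219) or without PBX3_Cl KO replicate 2 (adjusted p = 0.0654). The library kit keeps strand, but no source used here states whether the counting used it, so counts at this minus-strand gene cannot be assigned to tRNA, to its light-strand precursor or to RNA of the opposite strand.

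**Figure D3:**
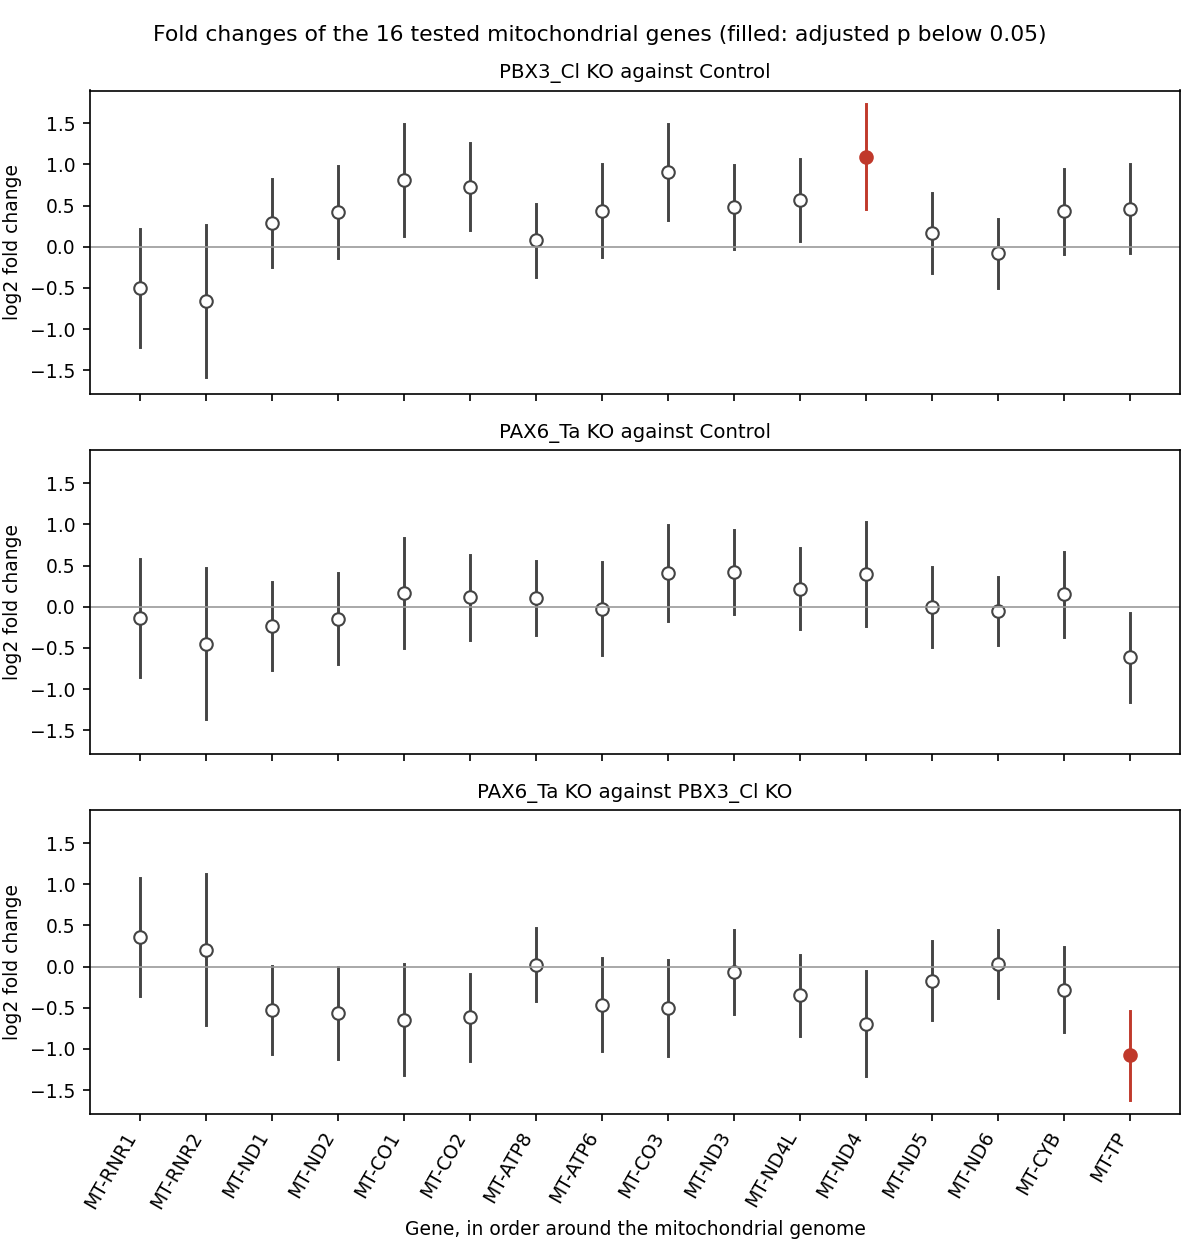
Points give the log2 fold change of each tested mitochondrial gene in the edgeR fit and vertical lines its 95% interval, in order around the genome, for the 3 comparisons; filled red points have an adjusted p below 0.05. MT-ND4 in PBX3_Cl KO against Control and MT-TP between the KO lines are the 2 filled points, and the intervals of the rRNAs are the widest.

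Copies of mitochondrial sequence in the nuclear genome limit how far single genes can be read. A search of GRCh37 found a nuclear match for 36 of the 37 genes, and for 17 a match over the full length at 98% identity or more. Of these, 14 were tRNA genes and 3 were protein genes, MT-CO1 (98.6%), MT-ATP6 (98.5%) and MT-ND2 (98.4%), all on chromosome 1. MT-CO2 had a match of 97.95% and MT-ATP8 of 97.6% in the same region, between positions 564813 and 569756. MT-ND4 and MT-ND4L had their best matches on chromosome 5, at 95.8% and 94.9%, and MT-TP its best on chromosome 17, at 91.2%. Reads that match a gene and its copy equally well are uncertain, and no source used here states how they were counted. In 7 tRNA genes, among them those for alanine, asparagine and lysine, the copy was identical over the full length, and all 7 were at 0 counts. So were 19 of the 22 tRNA genes in all, among them MT-TT, which had no nuclear match. Any part of the copies in these zeros was not tested.

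The nuclear copies that are listed as genes took few counts. There were 387 such rows, of which 27 were tested, and together they held 0.351 to 0.779 counts per 100 mitochondrial counts, lowest in PBX3_Cl KO replicate 2. By edgeR 1 was called higher and 0 lower in PBX3_Cl KO against Control, where 6.28% and 2.69% of all genes were, and 0 in either direction in PAX6_Ta KO (1 higher and 1 lower at an unadjusted p below 0.05, 0 by DESeq2), where 7.21% and 4.21% were. Between the lines 1 was lower in PAX6_Ta KO and 0 higher (1 lower and 0 higher also at an unadjusted p below 0.05, 0 by DESeq2). Both calls are of the same copy, which passed the filter on low counts only through PBX3_Cl KO, so they are no support for a difference in the copies. The called copy, MTCO1P48 on chromosome 2, named for MT-CO1, had 0 counts in all Control and PAX6_Ta KO libraries and 11 and 29 in PBX3_Cl KO. This is at least 15.4-fold higher than Control at a floor of 3 counts over the group, but DESeq2 did not call it (adjusted p = 0.583). MTATP6P1, a copy of MT-ATP6 and the most counted, had 3503 and 2678 counts in Control, 3465 and 2688 in PAX6_Ta KO, and 3161 and 1856 in PBX3_Cl KO.

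Nuclear genes whose products serve the mitochondrion were examined in 12 lists, 264 of whose genes were tested. They cover the nuclear subunits of the 5 complexes, transcription and RNA processing, RNA stability and decay, DNA maintenance, ribosomal proteins, aminoacyl-tRNA synthetases, tRNA modification and regulators of biogenesis. Few were called. In PBX3_Cl KO against Control 3 (1.14%) were higher and 1 (0.379%) lower, and in PAX6_Ta KO 4 (1.52%) were higher and 3 (1.14%) lower, each share below that of all tested genes. Between the lines 8 (3.03%) were lower in PAX6_Ta KO and 0 higher, where 6.71% and 5.26% of all tested genes were. At an unadjusted p below 0.05, 27 were lower and 8 higher there, and DESeq2 called 8 lower and 1 higher. The median log2 fold change of the 264 genes was -0.02 in PBX3_Cl KO and -0.04 in PAX6_Ta KO. With the replicate block these counts became 15 higher and 6 lower in PBX3_Cl KO, 12 and 15 in PAX6_Ta KO, and 2 and 18 between the lines. These are 5.68% and 2.27%, 4.55% and 5.68%, and 0.758% and 6.82% of the 264, against 9.26% and 4.22%, 9.78% and 7.33%, and 8.06% and 10.6% of all genes in that fit.

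The nuclear subunits that assemble with the mitochondrial proteins had median fold changes near 0 in PBX3_Cl KO. Over all tested genes 6.28% were called higher and 2.69% lower in this line against Control. By edgeR 0 of the 37 nuclear complex I genes were called in either direction (4 higher and 1 lower at an unadjusted p below 0.05, 0 by DESeq2), and their median log2 fold change was 0.01, beside estimates from -0.08 to 1.09 for the 7 mitochondrial complex I genes. Of the 11 nuclear complex IV genes 0 were called (0 also at an unadjusted p below 0.05 and by DESeq2), with a median of 0.04, beside 0.73 to 0.91 for the 3 mitochondrial ones. The medians were -0.01 for the 9 complex III genes, -0.07 for the 17 complex V genes and 0.08 for the 4 genes of complex II, which has no mitochondrially encoded subunit. With the replicate block, 3 of the 37 nuclear complex I genes were higher and 1 lower in PBX3_Cl KO, where 9.26% and 4.22% of all genes were.

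Among the genes that read, cut and stabilise mitochondrial RNA few were called. Of the 18 transcription and RNA processing genes 0 were called in either KO line against Control. Of the 17 RNA stability and decay genes 1 was called higher in PBX3_Cl KO and 1 lower in PAX6_Ta KO. Over all tested genes 6.28% were called higher in PBX3_Cl KO and 4.21% lower in PAX6_Ta KO. Of 18 transcription and RNA processing genes 8 had a fold change above 0 in PBX3_Cl KO (median log2 fold change -0.02) and 4 in PAX6_Ta KO (median -0.14). Of 17 RNA stability and decay genes 4 were above 0 in PBX3_Cl KO and 3 in PAX6_Ta KO (median -0.16 in both). Over all tested genes 49.0% were above 0 in PBX3_Cl KO (median -0.01) and 48.2% in PAX6_Ta KO (median -0.02). The 8 of 18 in PBX3_Cl KO is thus near the background. POLRMT, the mitochondrial RNA polymerase, measured 254 and 248 in Control, 264 and 226 in PAX6_Ta KO, and 341 and 342 in PBX3_Cl KO CPM, and its log2 fold change in PBX3_Cl KO was 0.44 ± 0.20 (SE, adjusted p = 0.231). TFAM, which packages mitochondrial DNA and activates its promoters, measured 175 and 184 in Control, 119.6 and 127 in PAX6_Ta KO, and 129 and 80.5 in PBX3_Cl KO CPM, with Control above all KO libraries, and was at -0.78 ± 0.23 (SE, adjusted p = 0.0561) in PBX3_Cl KO and -0.55 ± 0.23 (SE, adjusted p = 0.172) in PAX6_Ta KO. In PBX3_Cl KO, TFAM was called lower with the block (-0.80, adjusted p = 0.0315), with upper-quartile factors (adjusted p = 0.028), total counts (0.0287) or nuclear genes' sizes (0.0487) as scaling, with no filter (0.0118) and without PBX3_Cl KO replicate 1 (-1.19, adjusted p = 0.00591). In PAX6_Ta KO it was called lower with only the 2 groups in the fit (adjusted p = 0.0371) and without either PBX3_Cl KO library (0.0389 and 0.0312). TFB2M, another initiation factor, was at -0.49 ± 0.24 (SE, adjusted p = 0.275) and TEFM, the elongation factor, at -0.25 ± 0.20 (SE, adjusted p = 0.598) in PBX3_Cl KO. LRPPRC, which protects mitochondrial mRNAs together with SLIRP, measured 620.2 and 685 in Control, 459.6 and 446 in PAX6_Ta KO, and 649.9 and 475 in PBX3_Cl KO CPM, and was at -0.21 ± 0.22 (SE, adjusted p = 0.71) in PBX3_Cl KO and -0.53 ± 0.22 (SE, adjusted p = 0.179) in PAX6_Ta KO. SLIRP was at -0.59 ± 0.30 (SE, adjusted p = 0.31) in PBX3_Cl KO. Apart from the alternatives given for TFAM, none of these passed the test with all libraries, and without PBX3_Cl KO replicate 1 TFB2M was called lower in that line (-0.94, adjusted p = 0.0153).

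The called genes of these lists fell in several functions. MRM2, a methyltransferase of the large mitochondrial rRNA, rose in PBX3_Cl KO by 0.72 ± 0.18 (SE, adjusted p = 0.029), from 28 and 31.5 to 49.9 and 47.9 CPM. SUPV3L1, the helicase of mitochondrial RNA decay, fell in PAX6_Ta KO, at -0.68 ± 0.20 (SE, adjusted p = 0.0435). MTERF1 and FASTK were lower in PAX6_Ta KO than in PBX3_Cl KO, at -1.05 ± 0.22 (SE, adjusted p = 0.0069) and -0.78 ± 0.22 (SE, adjusted p = 0.0361). Among DNA maintenance genes, DNA2, a nuclease and helicase, measured 85.5 and 86 in Control, 52.7 and 54.2 in PAX6_Ta KO, and 60.5 and 46.3 in PBX3_Cl KO CPM and was lower in both KO lines, at -0.68 ± 0.20 (SE, adjusted p = 0.0491) and -0.68 ± 0.20 (SE, adjusted p = 0.0418). EXOG, a mitochondrial exonuclease, fell in PAX6_Ta KO, at -0.81 ± 0.20 (SE, adjusted p = 0.0193). POLG, the DNA polymerase, and TWNK, its helicase, were at -0.06 ± 0.21 (SE, adjusted p = 0.941) and -0.10 ± 0.18 (SE, adjusted p = 0.857) in PBX3_Cl KO and did not pass the test.

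For translation, GARS1, the glycyl-tRNA synthetase of both mitochondria and cytosol, rose in both KO lines. It measured 121 and 166 in Control, 349.7 and 285 in PAX6_Ta KO, and 348 and 324 in PBX3_Cl KO CPM, with all KO libraries above both Control libraries, and rose by 1.22 ± 0.22 (SE, adjusted p = 0.00385) in PBX3_Cl KO and 1.14 ± 0.22 (SE, adjusted p = 0.00488) in PAX6_Ta KO. Both calls were lost without Control replicate 1 (adjusted p = 0.0599 and 0.0782). Of 80 mitochondrial ribosomal protein genes 1 was higher in PBX3_Cl KO, MRPL17 at 0.94 ± 0.22 (SE, adjusted p = 0.0156), and 2 in PAX6_Ta KO, MRPS6 at 0.98 ± 0.24 (SE, adjusted p = 0.0197) and MRPL17 at 0.72 ± 0.21 (SE, adjusted p = 0.0495), where 6.28% and 7.21% of all genes were. With the block these counts were 6 and 3, where 9.26% and 9.78% of all genes were, with 1 and 4 lower, where 4.22% and 7.33% were. Between the lines MRPL28, DAP3 and MRPL24 were lower in PAX6_Ta KO, by -0.82, -0.73 and -0.65 on the log2 scale (adjusted p = 0.0169, 0.0433 and 0.048). NDUFS3 of complex I rose in PAX6_Ta KO, at 0.74 ± 0.19 (SE, adjusted p = 0.0252), and NDUFA3 of complex I and UQCR11 of complex III were lower there than in PBX3_Cl KO, by -0.81 and -0.93 (adjusted p = 0.0259 and 0.0103). Among regulators of biogenesis 0 of 11 were called in PBX3_Cl KO (1 higher at an unadjusted p below 0.05, 1 by DESeq2), NRF1 and GABPA were at -0.03 ± 0.22 (SE, adjusted p = 0.973) and -0.05 ± 0.20 (SE, adjusted p = 0.952) in PBX3_Cl KO, and PPARGC1A held 3 counts or fewer per library.

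Of the 19 calls in the 12 lists, 18 were lost when at least 1 library was left out, the exception being EXOG between the lines, at -1.23 ± 0.20 (SE, adjusted p = 0.00156). DESeq2 did not call DNA2 in PBX3_Cl KO or PAX6_Ta KO (adjusted p = 0.0642 and 0.0584), SUPV3L1 or MRPL17 in PAX6_Ta KO (0.0614 and 0.0556), or MRPL24 between the lines (0.0715).

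For most of these nuclear calls, the genes around the called gene had a median fold change of the same sign. For each named gene, the median log2 fold change of all other tested genes within 10 Mb on either side was computed. Of the 19 calls in the 12 lists, 17 had a regional median of the same sign and of at least 0.2 in size, the exceptions being MRPS6 in PAX6_Ta KO and NDUFA3 between the lines. The share of all called genes that meet this rule was not computed, so 17 of 19 has no background beside it. The 19 calls are also not independent. DNA2, EXOG, GARS1 and MRPL17 recur across comparisons, and the neighbourhoods of DAP3 and MRPL24 share most of their genes. Around MRPL17, on chromosome 11, the median was 0.61 in PBX3_Cl KO and 0.60 in PAX6_Ta KO over 218 genes. Around GARS1 and MRM2, on chromosome 7, it was 0.47 and 0.58 in PBX3_Cl KO and 0.61 and 0.66 in PAX6_Ta KO. Around DNA2, SUPV3L1 and TFAM, on chromosome 10, it was -0.53, -0.53 and -0.43 in PBX3_Cl KO, and the neighbourhoods of DNA2 and SUPV3L1 share most of their genes. Around POLRMT, on chromosome 19, it was 0.36 in PBX3_Cl KO and 0.01 in PAX6_Ta KO, beside the gene's own 0.44 and -0.04. The part of the region in each gene's change was not tested.

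**Figure D4:**
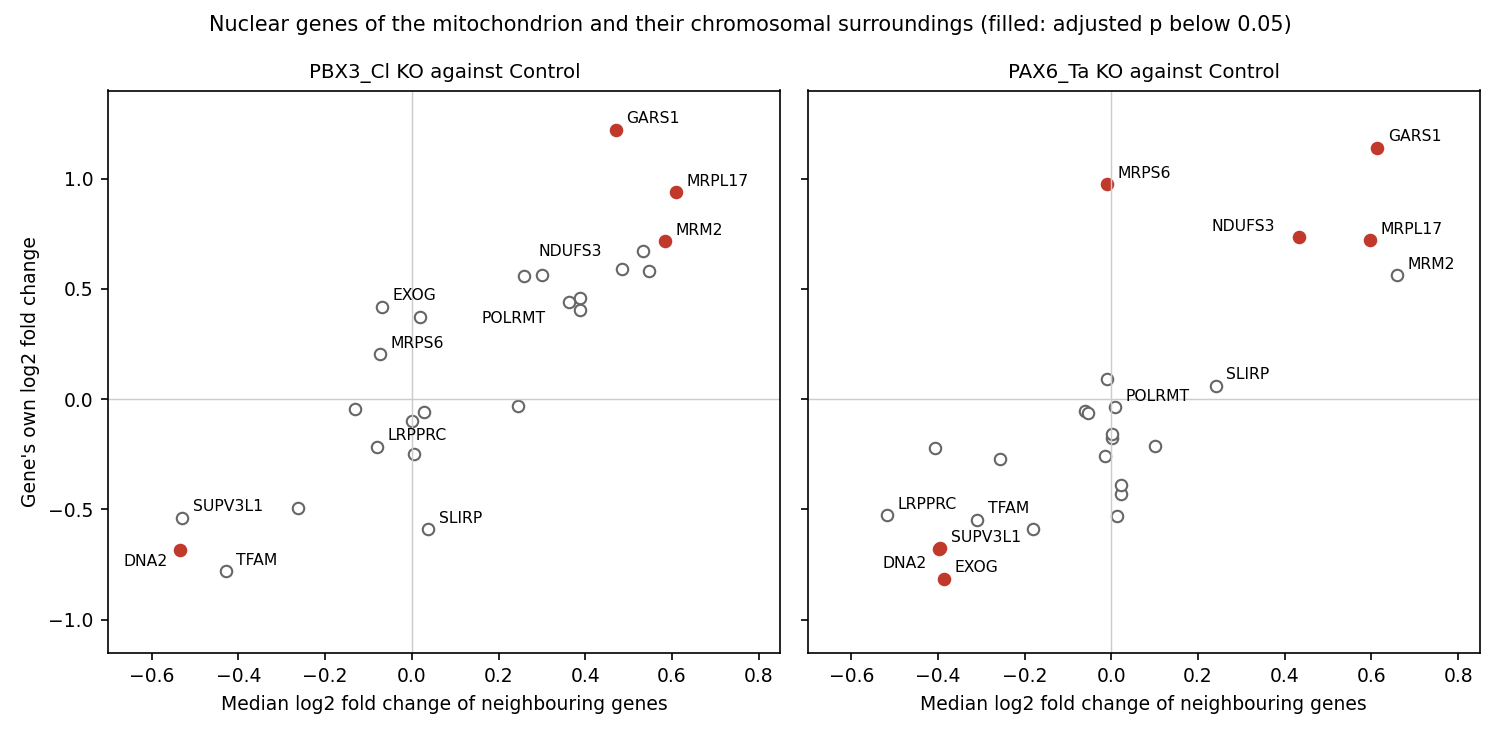
Each point is a named nuclear gene of the mitochondrion, placed by the median log2 fold change of tested genes within 10 Mb (horizontal) and its own log2 fold change (vertical), for each KO line against Control; filled red points have an adjusted p below 0.05. The filled points lie in the lower left and upper right of both panels, except MRPS6 in PAX6_Ta KO.

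The cell line label was checked against marker genes. All 8 erythroid markers of K562, among them the globin genes HBG1, HBG2 and HBE1, GATA1 and TFRC, were counted in every library, and summed to 5633 to 6529 CPM in Control, 8932 to 10494 in PAX6_Ta KO and 7027 to 8542 in PBX3_Cl KO. The 14 markers of other cell types summed to 825 to 950.4, 1114 to 1758 and 447 to 855 CPM, mostly from the keratins KRT8 and KRT18. NANOG and TNNT2 were at 0 in both Control libraries, and CD3E and DCN held at most 16 counts in any library. Of the 10 tested markers of other cell types, 3 were higher and 4 lower in PAX6_Ta KO, where 7.21% and 4.21% of all genes were, and 0 higher and 1 lower in PBX3_Cl KO, where 6.28% and 2.69% were. The shares of 10 in PAX6_Ta KO are above that background, and the part of these markers in the mitochondrial values was not tested.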

How the data were processed

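K562 libraries of 3 groups (Control, PAX6_Ta KO and PBX3_Cl KO, 2 each) were analysed, grouped by their titles. Per the labels and the study's methods, the authors trimmed stranded total RNA reads with cutadapt 3.4, aligned them to GRCh37 with STAR and deposited raw read counts per gene. Deposited DESeq2 results and 4 count columns of other samples were not used. The 37 genes, the gene lists and the tests were chosen with earlier results of these data known. Genes passing filterByExpr of edgeR 4.0.16 (R 4.3.3) were fitted over all 6 libraries with TMM factors by the quasi-likelihood test, and called at a Benjamini-Hochberg adjusted p below 0.05. DESeq2 1.42.0, other scalings and filters, and leaving out each library were alternatives. Code was tested on simulated data. Differences between replicates 1 and 2 correlated between groups (0.389, 0.21 and 0.379 across genes), so the numbers were taken to pair libraries. Replicates differed beyond counting noise. Nuclear copies were searched with BLAST+ 2.17.0 (word size 24) in GRCh37. All protein, rRNA and testable tRNA genes are named. Each nuclear list gives up to 3 called genes per direction and comparison with the smallest p, and 11 regulators always. The regional medians were added after seeing the data, using GENCODE positions for 97.0% of tested genes.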

Additional observations from a re-analysis of the deposited data

Results flagged for a closer look

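MT-TP, the proline tRNA gene, differed between the KO lines, with effects against Control of opposite sign. The log2 difference of PAX6_Ta KO from PBX3_Cl KO was -1.08 (SE 0.25, adjusted p = 0.0134 by edgeR's quasi-likelihood test), and both lines were compared with the same Control libraries.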

How the results depend on the processing

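The 2 libraries per group limit every value. The share ratio kept its direction in all alternatives: the log2 ratio of PBX3_Cl KO to Control was 0.63, and 0.61 to 0.66 otherwise. For PAX6_Ta KO it was 0.17, and 0.01 to 0.32. Without PAX6_Ta KO replicate 1 it was 0.01. Of the genes tested, 16 except for 18 with no filter and by DESeq2, those called higher in PBX3_Cl KO against Control numbered 1, but 4 with no filter, 4 with the replicate block, 2 by DESeq2, and 0 to 2 with 1 library left out. Those called lower there numbered 0, but 1 with no filter (MT-RNR2) and 0 to 2 with 1 library left out. In PAX6_Ta KO against Control 0 were lower, and 0 to 1 with 1 library left out. Between the lines 1 was lower, 3 with the block, and 0 to 1 with 1 library left out. The block changed no other call of a mitochondrial gene, and the cause of these changes was not tested. Total counts as scaling shifted the median of all genes in PBX3_Cl KO from -0.01 to -0.10. Calls over all genes moved by over 1.5 times with the block in 4 counts: from 558 to 876 lower in PBX3_Cl KO, 874 to 1520 lower in PAX6_Ta KO, and 1091 to 1672 higher and 1392 to 2205 lower between the lines.

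Small estimates changed sign, and so did larger ones of the rRNAs. In PBX3_Cl KO against Control, MT-RNR1 went from -0.50 to 0.33 and MT-RNR2 from -0.66 to 0.44 without Control replicate 1. In PBX3_Cl KO against Control, MT-ATP8 was -0.011 with upper-quartile factors and -0.026 with total counts, and -0.14 to 0.24 with 1 library left out. There MT-ND1 spanned -0.019 to 0.51, MT-RNR1 -1.02 to 0.33 and MT-RNR2 -1.27 to 0.44. In PAX6_Ta KO against Control, MT-ND5 was 0.014 with DESeq2 size factors, 0.013 with upper-quartile factors, 0.0028 with total counts, 0.0091 with nuclear genes' sizes, 0.0041 with no filter, 0.0080 with the stricter filter, 0.00012 with 2 groups only and 0.011 by DESeq2, and -0.058 to 0.066 with 1 library left out. There leaving out 1 library gave -0.66 to 0.69 for MT-RNR1, -1.07 to 0.65 for MT-RNR2, -0.40 to 0.092 for MT-ND2, -0.14 to 0.44 for MT-CO1, -0.18 to 0.38 for MT-CO2, -0.31 to 0.30 for MT-ATP6, -0.12 to 0.027 for MT-ND6 and -0.028 to 0.33 for MT-CYB. Between the lines it gave -0.14 to 0.59 for MT-RNR2, -0.14 to 0.26 for MT-ATP8, -0.34 to 0.33 for MT-ND3 and -0.034 to 0.14 for MT-ND6, and MT-ND3 was 0.042 with upper-quartile factors and 0.042 with total counts. Among nuclear genes it gave -0.15 to 0.094 for POLRMT and -0.19 to 0.36 for SLIRP in PAX6_Ta KO, and -0.34 to 0.15 for POLG, -0.25 to 0.23 for NRF1 and -0.29 to 0.14 for GABPA in PBX3_Cl KO.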
